A study of Mus musculus with 2 samples.

Results

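The Dlk1-Dio3 locus carries a large group of imprinted miRNA genes in the mouse, and 33 of its mature miRNAs were followed here in RNA from a mouse ovarian cancer model given bevacizumab or control IgG. The 33 were chosen by name among the 1900 miRNA probes of the array, each with 1 spot per array. RNA came from C57BL/6 mice, 5 weeks old when purchased, that carried ID-8 LUC2 cells, a luciferase-expressing mouse ovarian cancer line, placed in the peritoneal cavity. The labels title the arrays "ID-8, Control-IgG" and "ID-8, Bevacizumab", and both agents were given at 5 mg/kg, 2 times a week from day 14, until tissue was taken at day 42. Bevacizumab is an antibody raised against human VEGF-A, and whether it bound the VEGF-A of these mice was not measured. There was 1 array per treatment, so treatments could not be tested against each other and p-values are not given. The sources name tumour RNA in one place and cells in another, and leave unstated how many animals each RNA represents.

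The locus is imprinted in opposite senses for its protein-coding and its noncoding genes. The chromosome inherited from the father expresses Dlk1, Rtl1 and Dio3. The one inherited from the mother expresses long noncoding RNAs (Meg3, Rtl1 antisense, Rian and Mirg), from whose introns and exons the miRNAs are cut. These miRNAs are abundant in the embryo, the placenta and the brain and are low in most adult tissues, and they have been studied in neurons, in metabolism around birth, in muscle and in the growth of blood vessels. The miRNAs of one group are processed from a shared transcript, and the mature level of each also depends on its own processing and stability.

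All 33 miRNAs matched a hairpin of RefSeq (build GRCm38.p6) on chromosome 12, and 30 of them a mature sequence. The hairpins spanned 180 kb. miR-770 (2 mature miRNAs) lay within Meg3, 6 miRNAs within the span of Rtl1, to which they are antisense, and miR-370 within Rian. The other 24 belonged to the miR-379 to miR-410 group, of which 5 lay within the annotated span of Mirg. The mature sequences of the 6 miRNAs that were detected on both arrays and have a RefSeq entry are shown because the comparison between arrays rests on them. Capitals mark the seed, bases 2 to 8, which pairs with target transcripts.
mmu-miR-770-3p: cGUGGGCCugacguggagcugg
mmu-miR-337-5p: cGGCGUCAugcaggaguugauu
mmu-miR-434-3p: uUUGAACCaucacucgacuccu
mmu-miR-370-3p: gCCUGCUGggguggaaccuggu
mmu-miR-494-3p: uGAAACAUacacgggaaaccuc
mmu-miR-409-3p: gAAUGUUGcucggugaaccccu

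In the genome these lie on the plus strand at chr12:109563744-109563765 (miR-770-3p), chr12:109585818-109585839 (miR-337-5p), chr12:109594565-109594586 (miR-434-3p), chr12:109618305-109618326 (miR-370-3p), chr12:109715367-109715388 (miR-494-3p) and chr12:109743204-109743225 (miR-409-3p). A second set is shown because their signal was seen on the control array and not on the bevacizumab array, or because a close relative could share signal with them.
mmu-miR-770-5p: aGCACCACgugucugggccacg
mmu-miR-127-3p: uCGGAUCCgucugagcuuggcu
mmu-miR-300-3p: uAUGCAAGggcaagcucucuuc
mmu-miR-381-3p: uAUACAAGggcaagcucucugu

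The 30 matched members had 30 distinct seeds, so no seed was shared among them. Some members are nonetheless close in sequence. miR-300-3p and miR-381-3p differed at 3 of 22 bases (G4A, U21G and C22U, counted from the 5′ end with the base of miR-300-3p first). miR-376b-3p and miR-376a-3p differed at 3 of 21 bases, and miR-543-3p and miR-495-3p at 4 of 22. Signal may be shared between the probes of such pairs. Other mouse miRNAs in RefSeq shared the seed of 5 members: miR-329-3p with miR-362-3p, miR-379-5p with miR-1193-5p of the same locus, miR-411-5p with miR-7229-5p, miR-495-3p with miR-1192 and miR-12200-5p, and miR-410-3p with miR-344d-3p and miR-344e-3p.

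Signals are given as intensity units above the mean of the blank spots of the same array, which was 72.8 ± 0.828 units on the control array against 185 ± 4.03 units on the bevacizumab array (mean ± SD of 808 blank spots after trimming). A miRNA was called detected at more than 2 SD above that mean, which is 1.66 units on the control array against 8.06 units on the bevacizumab array. The bevacizumab array thus needed a larger signal for a call. The local background beside a spot was lower at blank spots than at miRNA probes. Its median was 63.3 and 69.25 units on the control array, and 156.6 and 160.7 units on the bevacizumab array. A probe a few units above the blanks may therefore reflect its surroundings. What this contributes to the calls near the limit was not tested. Detection reached 74.5% of all 1900 probes with control IgG and 49.5% with bevacizumab. Among the 917 probes detected on both, the median signal was 1.77 times as high on the bevacizumab array before normalization. The epithelial miR-200 family was detected with 5 of 5 probes on the control array and 1 of 5 on the bevacizumab array. Its summed signal was 549 and 40.0 units. The 5 stromal and mural probes were detected on both arrays, with summed signals of 3910 and 518 units, although miR-214-3p among them read 87.2 and 140.4 units. The endothelial probes (2 of 2 on each array) had summed signals of 997 and 86.5 units, and leukocyte probes were detected with 5 of 5 and 2 of 5, with sums of 282 and 80.0 units, although miR-150-5p among them read 21.1 and 44.2 units. Of the neural probes, miR-124-3p was detected on neither array and miR-9-5p on the control array alone (28.5 and 3.01 units). The striated muscle probes (2 of 2 on each array) had summed signals of 2020 and 232 units. Erythroid probes were detected with 2 of 2 on the control array and 1 of 2 on the bevacizumab array, with sums of 1700 and 150 units. These sums are not normalized between the arrays. After the normalization described below, marker probes detected on both arrays and at least 2-fold lower numbered 4 stromal and mural, 2 endothelial and 2 striated muscle. There were 1 epithelial and 1 erythroid, and 0 leukocyte and 0 neural. None was at least 2-fold higher. Over all 917 probes, 11.6% were lower and 10.5% higher. If the RNA came from whole tumours, fewer cells of a type and less RNA per cell cannot be told apart. What these marker differences contribute to the values below was not tested.

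Most miRNAs of the locus were at or near the level of the blank spots. Among them, 22 were detected on the control array against 9 on the bevacizumab array. Of the 33, 8 were seen on both arrays (48.3% of all probes were), 14 were seen on the control array alone (26.3% of all), 1 on the bevacizumab array alone (1.21% of all) and 10 on neither (24.3% of all). Detected on both were miR-770-3p, miR-337-5p, miR-434-3p, miR-370-3p, miR-494-3p, miR-487b-3p, miR-485-5p and miR-409-3p. The authors' deposited table lists the same members on each array. Its values lay on a straight line of the same spot intensities, so this match is not independent support for the calls. The median over the 33 was 3.25 units on the control array against 1.95 units on the bevacizumab array. On the bevacizumab array 13 of the 33 read below the mean of the blanks.

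**Figure D1:**
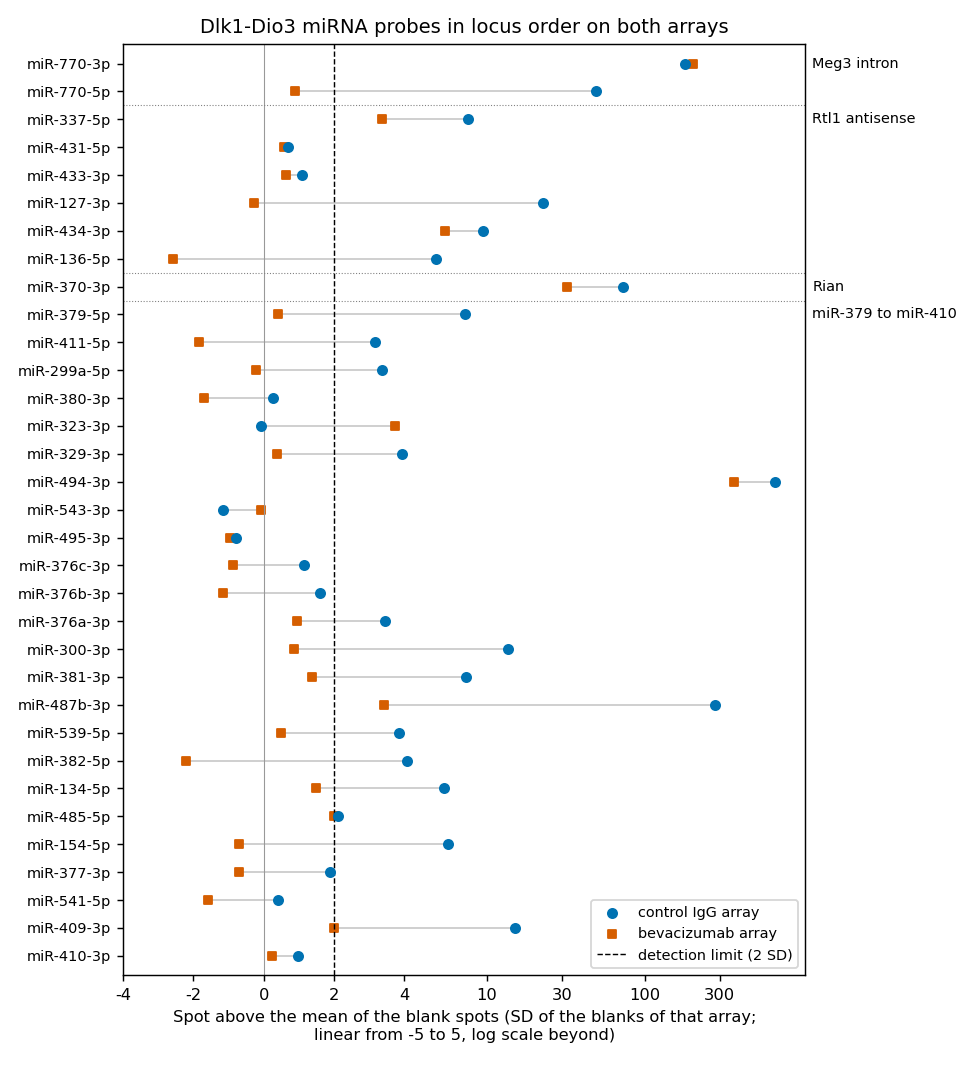
Height of each of the 33 miRNA probes above the blank spots, in SD of the blanks of its own array (linear from -5 to 5, log scale beyond), in the order of the hairpins along the locus; circles are the control IgG array, squares the bevacizumab array, and the dashed line is the detection limit of 2 SD. The SD of the blanks was 0.828 units on the control array against 4.03 on the bevacizumab array, so equal signals lie further left on the bevacizumab array; 22 circles and 9 squares lie to the right of the limit.

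Of the 22 members detected on the control array, 8 were also detected on the bevacizumab array, beside 64.8% of the 1416 probes of any kind that the control array detected. Over all probes, the share also detected on the bevacizumab array was smaller where the control signal was dimmer. Among probes under 5 units on the control array, 1 of 10 members and 20.7% of all 309 probes were also detected on the bevacizumab array. Between 5 and 20 units these were 3 of 7 members and 64.1% of 579 probes, and from 20 units upward 4 of 5 members and 91.3% of 528 probes. The other probes of the locus gave 4 of 16, 7 of 15 and 13 of 13 in these classes. These brightness classes were set after the values of the members had been seen, and counts of this size were not tested. What brightness contributes to the share of the members was not tested either.

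In the comparison of the arrays, 2 of the 8 members were at least 2-fold higher on the bevacizumab array (10.5% of the 917 probes were) and 1 was at least 2-fold lower (11.6% of them). These were miR-770-3p and miR-494-3p, which were higher, and miR-487b-3p, which was lower. The values are log2 differences, bevacizumab minus control, after a background correction on the blank spots with an offset of 50 units and quantile normalization of all miRNA probes (the main processing); the offset draws the difference of dim miRNAs toward 0. The median over the 8 was 0.19, beside 0.14 over all 917. Repeat spots of bright control probes gave an SD of 0.16 for a log2 difference, which covers error between spots within these arrays only. It was taken before normalization and without the offset, and it does not cover the scatter of dim spots. In the main processing the differences of miR-770-3p, miR-494-3p, miR-487b-3p, miR-370-3p and miR-434-3p were larger than that. This SD therefore does not set apart the members past 2-fold.

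miR-770 lies in an intron of Meg3 and stands first among the members in the order of the hairpins. Its 3p arm, mmu-miR-770-3p, read 149 units on the control array against 817 on the bevacizumab array. It was thus 5.48 times as high before normalization and 4.84-fold higher after it (log2 2.28). It stayed above 0 in all 9 ways of processing, from 0.18 when the arrays were scaled to 5 bright control probes (bevacizumab to control ratios of 4.61 to 5.11) to 2.60 with an offset of 0; in the authors' deposited table it was 1.19. The 5p arm of the same hairpin, miR-770-5p, read 40.6 units on the control array against 3.60 on the bevacizumab array, where it was below the detection limit. It was at least 1.59-fold lower, or at least 5.37-fold lower with an offset of 0. In the main processing the arms of miR-770 therefore differed between the arrays in opposite directions.

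The miRNAs antisense to Rtl1 are transcribed from its opposite strand, and several of them are fully complementary to the Rtl1 transcript and can cleave it. Rtl1 itself is needed in the placenta. Of the 6 members of this group, 4 were detected on the control array and 2 on both. mmu-miR-434-3p read 7.86 and 21.9 units on the control and bevacizumab arrays (log2 0.24), and mmu-miR-337-5p read 6.27 and 13.6 units (log2 0.14). Both were within 2-fold, and before normalization they were 2.79 and 2.17 times as high on the bevacizumab array, with SDs of 0.31 and 0.47 in log2 from the scatter of the blanks alone. miR-337-5p changed sign with the scaling, from -1.16 under control-probe scaling to 0.97 with the blank mean subtracted, and miR-434-3p was below 0 only under control-probe scaling (-0.79).

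The other members of this group were seen on the control array alone or not at all. miR-127-3p, the best known of the miRNAs that cleave Rtl1, read 19.0 units on the control array against -1.09 units on the bevacizumab array. It was at least 1.24-fold lower, or at least 2.79-fold lower with an offset of 0. miR-136-5p read 4.07 units on the control array against -10.4 units on the bevacizumab array, where the lowest level detected was too high for a bound. miR-431-5p, studied in muscle regeneration, and miR-433-3p read at most 0.909 units on the control array against 2.55 units on the bevacizumab array and were not detectable on either. The opposite arms of both hairpins were detected on both arrays. On the control and bevacizumab arrays, miR-431-3p read 34.4 and 17.8 units and miR-433-5p read 27.9 and 28.3 units.

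mmu-miR-370-3p, from the Rian transcript, read 60.5 units on the control array against 131 on the bevacizumab array. The ratio before normalization was 2.16, near the 1.77 of the median probe, and the log2 difference of 0.65 was within 2-fold. Over the other ways of processing it ranged from -1.16 under control-probe scaling to 1.02 with an offset of 0, and it was -0.16 in the deposited table. A direction for miR-370-3p thus rests on the scaling. The local background beside its spot was 115.2 units on the control array, where the median miRNA probe had 69.3. The spot itself read 133.4 units there before the blank mean was taken off. On the bevacizumab array the local background was 202.5 units and the spot 315.5. Corrected by local background, its difference was 0.46.

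The miR-379 to miR-410 group held 24 of the 33 members, of which 15 were detected on the control array against 5 on the bevacizumab array. In mice, loss of this group disturbs metabolism after birth and social behaviour. Its median difference over the 4 members detected on both arrays was -0.0038, with 1 member past 2-fold in each direction.

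mmu-miR-494-3p read 557 units on the control array against 1478 on the bevacizumab array. It was 2.65 times as high before normalization and 3.51-fold higher after it (log2 1.81). The direction depended on the scaling, since it was 0.14 in the deposited table and -0.86 under control-probe scaling. The local background beside its spot was 510 units on the control array, where the median miRNA probe had 69.3, and 365 units on the bevacizumab array, where the median was 160.7. Corrected by local background, its difference was 2.07. Local background was also raised beside miR-770-3p, at 199.5 units for control IgG against 466.3 for bevacizumab, and beside miR-487b-3p on the control array, at 197.1 units. Before the blank mean was taken off, the spots themselves read 630.2 and 1663 units for miR-494-3p and 221.9 and 1002 units for miR-770-3p. The spot of miR-487b-3p read 303.7 units on the control array. Corrected by local background, the differences were 1.95 for miR-770-3p and -1.51 for miR-487b-3p.

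miR-487b-3p differed the other way. The spot of mmu-miR-487b-3p read 231 units on the control array against 13.8 on the bevacizumab array, 16.7-fold lower before normalization. After normalization it was 4.43-fold lower (log2 -2.15), and it stayed below 0 in all 9 ways of processing, from -6.34 under control-probe scaling to -1.51 with local background. Its spot on the bevacizumab array stood 3.42 SD above the blanks, so the call was lost at a detection limit of 5 SD and the size is imprecise, with an SD of 0.42 in log2 from the blanks alone. The 5p arm of the hairpin, miR-487b-5p, read 11.6 and 11.2 units (log2 -0.045).

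The remaining 2 members of the group detected on both arrays lay close to the limit. miR-409-3p read 12.6 and 8.14 units (log2 -0.14), and was below 0 in all 9 ways of processing, down to -2.90 under control-probe scaling. miR-485-5p, a neuronal miRNA, read 1.74 and 8.13 units (log2 0.13), and ranged from -0.052 to 2.54 over the ways of processing. Both stood 2.02 SD above the blanks of the bevacizumab array, and the scatter of the blanks alone gave SDs of 0.72 and 0.99 for their log2 ratios. The size of either difference is therefore imprecise.

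How many members passed 2-fold depended on the processing, as it did for all probes. With an offset of 0 and with the blank mean subtracted, 5 of the 8 were at least 2-fold higher, where 33.4% and 34.1% of all 917 probes were, and 1 was lower, where 17.0% were in both cases. The 5 were miR-770-3p, miR-434-3p, miR-370-3p, miR-494-3p and miR-485-5p. The authors' deposited table had 1 higher (2.94% of all) and 2 lower (32.4%), and scaling to the control probes gave 0 higher (0.545%) and 4 lower (70.3%). The counts stayed at 2 higher and 1 lower with local background (5.23% and 5.13% of all), cyclic loess (6.65% and 14.1%), median scaling (5.78% and 12.3%) and no normalization (9.49% and 11.2%). miR-487b-3p was among the lower ones each time.

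**Figure D2:**
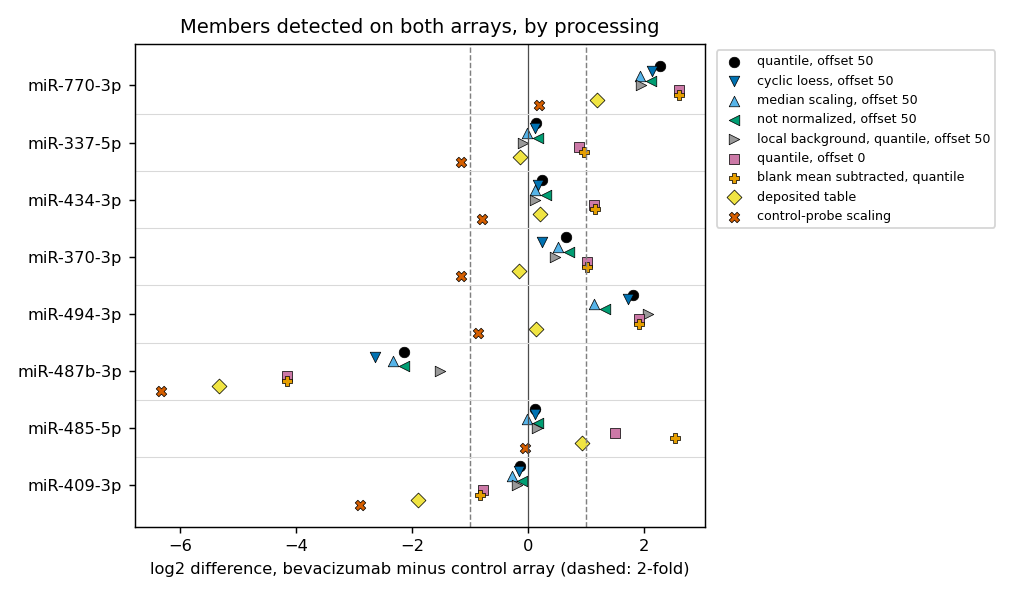
Log2 difference, bevacizumab minus control array, of the 8 members detected on both arrays under each of 9 ways of processing (1 symbol each); dashed lines mark 2-fold. miR-770-3p lies above 0 and miR-487b-3p and miR-409-3p below 0 throughout, while miR-494-3p runs from -0.86 to 2.07.

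In the same group 11 members were seen on the control array alone. miR-300-3p was the only one of them with a bound, at 11.2 units on the control array against 3.51 on the bevacizumab array (at least 1.07-fold lower). Its relative miR-381-3p read 6.10 and 5.59 units. miR-379-5p, the first of the group, read 6.00 and 1.61 units, and miR-154-5p read 4.72 and -2.83 units. miR-134-5p, which limits dendritic spine growth in neurons, read 4.44 and 5.96 units, a larger signal on the array where it was not called. miR-376a-3p did likewise at 2.85 and 3.80 units. These last values show that a miss on the bevacizumab array is not by itself a lower level.

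A set of 6 of the 11, miR-376a-3p included, were near the limit of the control array as well, with 2.62 to 3.38 units there. They were miR-411-5p, miR-299a-5p, miR-329-3p, miR-539-5p and miR-382-5p, besides miR-376a-3p. On the bevacizumab array they ran from -8.93 units for miR-382-5p to 3.80 for miR-376a-3p. Of all 14 members seen on the control array alone, 3 had a bound and none reached 2-fold; with an offset of 0, 2 did.

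miR-323-3p was the single member seen on the bevacizumab array alone, at -0.059 units on the control array against 15.1 units (3.75 SD) on the bevacizumab array, at least 1.20-fold higher, or at least 5.06-fold higher with an offset of 0. Its other arm, miR-323-5p, was detected on both arrays at 22.3 and 71.9 units (log2 0.68, and -0.59 under control-probe scaling). Not detected on either array were miR-380-3p, miR-543-3p, miR-495-3p, miR-376c-3p, miR-376b-3p, miR-377-3p, miR-541-5p and miR-410-3p. Together with the 2 from the Rtl1 group, these 10 read between -0.955 and 1.56 units on the control array and between -6.81 and 2.55 units on the bevacizumab array.

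Members of the group have been linked to vessel growth: in mice, blocking miR-329, miR-487b, miR-494 or miR-495 has been reported to improve the return of blood flow to an ischaemic hind limb. Here miR-487b-3p was lower, miR-494-3p was higher in the main processing and lower under control-probe scaling, miR-329-3p read 3.25 and 1.49 units and was seen on the control array alone, and miR-495-3p read -0.641 and -3.90 units and was detected on neither.

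A textbook list of the locus, which may not be complete, added a further 80 probes, among them the opposite arms of the members. Of these, 73 matched a RefSeq hairpin, each on chromosome 12. Of the 80, 44 were detected on the control array, 24 of these also on the bevacizumab array, and none on the bevacizumab array alone. The median difference of these 24 was 0.12. In the main processing 2 of the 24 were past 2-fold upward (10.5% of all 917 probes were) and 1 downward (11.6%), with 21 within 2-fold. These counts depended on the offset. With an offset of 0 the median was 0.45 (0.60 for all 917), and further probes passed 2-fold in both directions. Among all 917, 33.4% then passed upward and 17.0% downward. Those past 2-fold were miR-3072-5p and miR-667-5p (higher) and miR-3072-3p (lower). miR-3072-5p read 322.7 and 878 units (log2 1.60), and miR-667-5p read 43.8 and 173.5 units (log2 1.19). miR-3072-3p, from the same hairpin as miR-3072-5p, read 675 and 214.5 units (log2 -1.31). Under control-probe scaling miR-3072-5p and miR-667-5p were below 0 (-0.83 and -0.29), and with local background miR-667-5p was at -0.10.

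The 21 within 2-fold were miR-134-3p, miR-540-3p, miR-431-3p, miR-433-5p, miR-667-3p, miR-668-3p, miR-323-5p, miR-380-5p, miR-665-3p, miR-665-5p, miR-1188-3p, miR-1188-5p, miR-341-3p, miR-487b-5p, miR-3544-3p, miR-3544-5p, miR-3070-5p, miR-3070-3p, miR-3070-2-3p, miR-666-5p and miR-493-3p. Of these miR-540-3p had the lowest difference (log2 -0.56, with 36.3 and 9.56 units) and miR-380-5p the highest (log2 0.92, with 22.0 and 94.9 units). With an offset of 0 both were past 2-fold, at -2.06 and 1.90. So were miR-134-3p (-1.47) and miR-323-5p (1.49). In all, 32 of 113 listed probes of the locus were detected on both arrays (48.3% of all miRNA probes were). Their median was 0.13, beside 0.14 for all miRNA probes.

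**Figure D3:**
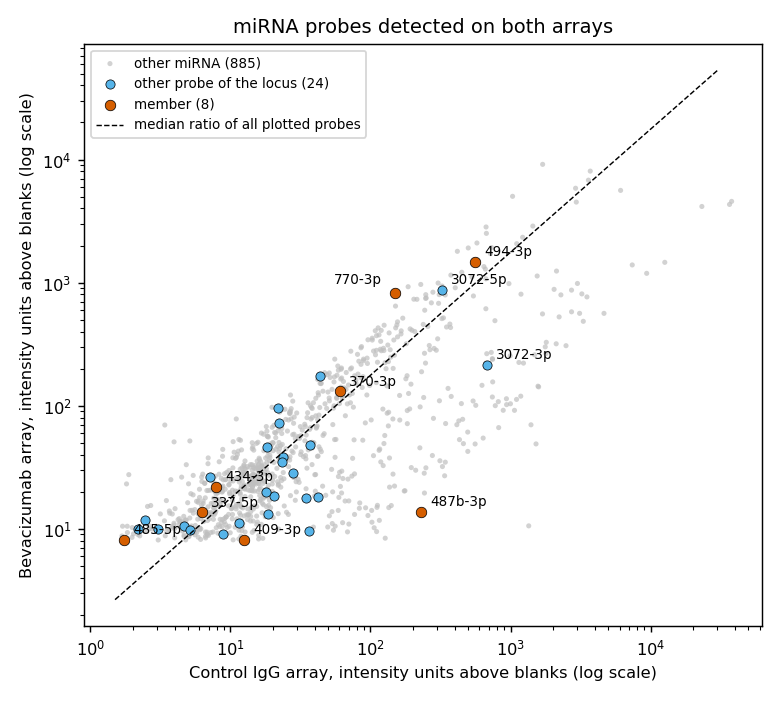
Signal above the blanks on the control IgG array (x axis) and the bevacizumab array (y axis), both in intensity units on log scales, for the 917 miRNA probes detected on both; the 8 members and the 24 other probes of the locus are coloured, and the dashed line is the median ratio of 1.77. miR-770-3p, miR-494-3p and miR-3072-5p lie above the line, and miR-487b-3p and miR-3072-3p below it.

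Detection followed base composition on the array as a whole. For all probes with a known sequence the median GC content was 59.1% where both arrays detected the miRNA, 50% where only the control array did and 43.5% where neither did. Among the members it was 47.6% for the 14 seen on the control array alone and 38.1% for those seen on neither (9 of 10 with a sequence). For the members detected on both arrays it was 54.5% (45.5% to 72.7%), but only 6 of 8 (75.0%) have a sequence, so this value is incomplete. miR-770-3p had a GC content of 72.7%, miR-770-5p 68.2%, miR-494-3p 45.5% and miR-3072-5p 77.3%. Across 784 probes detected on both arrays, which share labelling and hybridisation and are not replicates, GC content and log2 difference were positively related (Pearson's r 0.451, Spearman's rho 0.358). The part of base composition in the differences of single members was not tested.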

How the data were processed

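Total RNA was labelled with Cy5 for the Toray 3D-Gene miRNA array, per the labels' protocols, with 1 array per treatment. The authors deposited scanner files whose values are linear spot and local background intensities at 635 nm, from 3 scan gains related by least squares, per the file headers. They also deposited a table whose scale and software the sources used here do not state. Set against the scanner values, each array's column lay on a straight line of the spot intensity that reached 0 at the blank mean (largest departure 0.0525 and 0.051 units), so it was taken as linear intensity, blank-subtracted and scaled per array. Blank spots were trimmed by 5% at each end. Detection required the blank mean plus 2 SD. Intensities were corrected with normexp on the blank spots (limma 3.58.1 in R 4.3.3, offset 50) and quantile-normalized over 1900 miRNA probes. The step was tested on simulated data with changes planted only on bright probes. Blank scatter differed less between the simulated arrays than between the real ones. That test therefore does not cover the dim members. A fixed size of 2-fold replaced a test. For a miRNA seen on 1 array, the bound is against the higher of the lowest detected level and its own level on the other array. Alternatives were another offset, background, normalization, detection limit, scaling to 5 control probes picked earlier for brightness, and the deposited table. All 33 members were named under a rule that accounts for each; members and lists were chosen with earlier results of these data known. The number of arrays limits the precision.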

Additional observations from a re-analysis of the deposited data

How the results depend on the processing

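No paired analysis was possible because there was 1 array per group. The number of members detected on both arrays stood at 8 in the main processing and in the deposited table, which rescales the same spot intensities and is no independent check. It fell to 4 when 5 SD were required. The median difference of these members was 0.19; it was 1.08 at an offset of 0, 1.09 after subtraction of the blank mean, 1.23 at 5 SD, -0.012 with no detection filter, -0.0045 in the deposited table and -1.01 under control-probe scaling, where the medians of all probes detected on both arrays were 0.60 (offset of 0), 0.64 (blank mean), -0.45 (deposited table) and -1.45 (control probes). The count at least 2-fold higher went from 2 to 5 under both of these settings, to 1 in the deposited table and to 0 under control-probe scaling. The count at least 2-fold lower went from 1 to 2 in the deposited table and to 4 under control-probe scaling. It fell to 0 at 5 SD, which leaves out miR-487b-3p. Counts and medians over all probes are not given at 5 SD, nor is their median with no detection filter. The values at 5 SD are therefore not read as particular to the members. Cyclic loess, median scaling, local background and no normalization kept both counts, with medians of 0.15, 0.053, 0.14 and 0.24. Among single members called at 2-fold, the sign turned once, for miR-494-3p under control-probe scaling (-0.86). An offset of 0 lets dim values count in full; the cause of the other shifts was not tested. No count of members detected was made without a detection limit. The bevacizumab array's blank scatter limits what can be said of any member under 8.06 units there.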

Other observations

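In some hairpins of the locus with probes for both arms, the arms did not read alike on the arrays. The pairs named here were chosen with their values in view, levels of different probes are not compared, and no difference was tested. In miR-770 the 3p arm was higher on the bevacizumab array and the 5p arm was lost from it. In miR-3072 the order of the arms was the reverse, with the 5p arm at log2 1.60 and the 3p arm at log2 -1.31. Their sequences are shown for that contrast, with seeds in capitals.
mmu-miR-3072-5p: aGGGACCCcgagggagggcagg
mmu-miR-3072-3p: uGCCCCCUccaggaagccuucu

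The opposite directions of miR-3072 held in the deposited table (0.18 and -2.92) but not under control-probe scaling (-0.83 and -3.92). In miR-487b the 3p arm was lower and the 5p arm read 11.6 and 11.2 units. In miR-134 the 3p arm read 42.4 and 17.9 units (log2 -0.51), while the 5p arm read 4.44 and 5.96 units and was called on the control array alone. In miR-380 the 5p arm read 21.99 and 94.9 units, and the 3p arm was detected on neither array. In miR-667 the 5p arm was at log2 1.19 and the 3p arm at log2 0.13 (36.9 and 47.7 units).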
